A study of Drosophila melanogaster with 2 samples.

Results

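The genes described here are 8 Drosophila melanogaster loci of the basic helix-loop-helix (bHLH) class, taken by name from a list of atonal-family genes and their dimerization partners. They are ato, amos, cato, tap, dimm and Oli, which encode tissue-restricted factors, and da and emc. The product of da is a common partner of such factors, and that of emc is an inhibitor. Together these genes make up 8 of 13945 protein-coding genes on the main chromosome arms. For each gene, the peaks counted are those in the gene body or within 10 kb of it. This set was 6 peaks of the list made from both replicates, 47 peaks of replicate 1 and 58 peaks of replicate 3.

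The data are chromatin immunoprecipitation sequencing (ChIP-seq) of cato itself, in whole embryos aged 0 to 16 h with both sexes pooled. There was 1 condition, a transgenic line that stably carries cato joined at its C-terminus to enhanced green fluorescent protein (eGFP). The 2 biological replicates, numbered 1 and 3 in the labels, came from this line, and anti-GFP antibody was used for the precipitation. Per the labels, chromatin was sonicated to a size range of 200 to 800 bp. A control precipitation was not analysed here, so no peak is newly set against one. Whether the deposited signal values already take one into account is not known here.

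Each replicate has a deposited list of 30000 peaks that runs down to weak ones. A further list, described as derived from both replicates, holds the 2746 peaks kept by the irreproducible discovery rate (IDR) procedure. That procedure selects peaks by how reproducibly they rank between lists. Of the 2746, 2741 overlapped a peak of each replicate. The strength of a peak is the authors' deposited signal value, and rank 1 is the strongest peak of a list. The scales differ: the replicate 1 list spans 7.3 to 379.8, the replicate 3 list 9.9 to 572.5 and the IDR list 68.9 to 1099.8. Values are therefore compared only within a list. Read depth is unknown, so no counting error can be given for a peak.

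bHLH proteins bind DNA as dimers, each partner reading one side of a short sequence called the E-box, CANNTG. In the fly, many tissue-restricted factors pair with the broadly expressed product of da. The product of emc has the dimerization domain but no DNA-binding basic region, so it holds partners in inactive pairs. ato is the proneural gene of chordotonal organs and founding photoreceptors, and amos that of a class of olfactory sensilla. cato acts later in sense organ precursors, after the proneural genes. tap is a neuronal relative of vertebrate neurogenins, dimm drives the peptide-secreting neuron fate, and Oli belongs to the Olig family and functions in motor neurons. In a whole embryo these genes are active in small sets of cells, except da and emc, which are active more broadly.

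The sequences under the peaks of these genes show what the precipitate covered. Each run reaches 100 bases to either side of a summit on the plus strand of dm6, as read from the RefSeq copy of that assembly; a summit is the position of highest signal in a peak. Capitals mark every E-box CANNTG, a pattern that reads the same on both strands. The first 4 are IDR peaks. The last, labelled the dimm start-site peak, lies upstream of the first dimm start site and outside 500 bp of it. Its summit is 667 bp from that start site in replicate 1 and 605 bp in replicate 3. Both replicates hold this peak but the IDR list does not, and the run is centred on the replicate 3 summit. The other 2 IDR peaks, near amos and da, lie in annotated untranslated regions and are described by their E-boxes only.
Oli upstream peak (chr2L:17583120-17583320): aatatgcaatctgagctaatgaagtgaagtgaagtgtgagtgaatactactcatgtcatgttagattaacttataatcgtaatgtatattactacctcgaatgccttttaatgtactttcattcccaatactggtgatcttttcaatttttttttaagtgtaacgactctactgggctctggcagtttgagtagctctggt
da upstream peak at Cdk1 (chr2L:10386306-10386506): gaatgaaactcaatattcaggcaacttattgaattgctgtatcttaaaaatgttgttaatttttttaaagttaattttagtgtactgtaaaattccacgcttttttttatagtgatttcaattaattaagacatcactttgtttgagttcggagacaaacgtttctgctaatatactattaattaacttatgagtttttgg
emc upstream peak (chr3L:745676-745876): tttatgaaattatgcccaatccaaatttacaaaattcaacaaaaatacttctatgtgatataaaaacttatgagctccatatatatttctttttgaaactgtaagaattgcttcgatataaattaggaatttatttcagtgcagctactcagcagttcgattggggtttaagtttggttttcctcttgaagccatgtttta
emc downstream peak (chr3L:762407-762607): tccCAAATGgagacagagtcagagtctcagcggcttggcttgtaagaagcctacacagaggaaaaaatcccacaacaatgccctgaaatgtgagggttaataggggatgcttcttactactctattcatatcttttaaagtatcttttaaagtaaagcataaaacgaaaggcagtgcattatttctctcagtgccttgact
dimm start-site peak (chr2L:21331051-21331251): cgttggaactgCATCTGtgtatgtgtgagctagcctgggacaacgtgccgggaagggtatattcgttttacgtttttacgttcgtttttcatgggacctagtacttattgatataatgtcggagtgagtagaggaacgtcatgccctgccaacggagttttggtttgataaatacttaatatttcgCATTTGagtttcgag

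The IDR peaks upstream of Oli, at Cdk1 and upstream of emc have no E-box in the printed runs, and the peak downstream of emc has a single CAAATG at 95 bp from its summit. The peak near amos has CAAATG at 85 bp, then CACCTG at 57 bp and CATTTG at 53 bp from the summit. The other peak near da has 1, CACTTG at 42 bp. In all, 3 of 6 held an E-box within 100 bp of the summit, against 57.5% of all IDR peaks, and 1 of 6 held one within 50 bp, against 32.7%. Over whole peaks the count was 6 of 6, against 82.7%. Also searched on both strands within 50 bp were 4 single E-box words, and each was in 0 of the 6 peaks. The CACCTG near amos, which reads CAGGTG on the other strand, lay outside this window at 57 bp. Of all IDR windows, 2.11% held CAGGTG, 3.39% held CATGTG, 2.99% held CAGCTG and 4.12% held CATATG. The share of G and C within 50 bp was 23.8% at Cdk1 and between 27.7% and 34.7% at the other 5 IDR peaks, against a median of 30.7% over all IDR windows. The dimm start-site peak has CATCTG at 87 bp and CATTTG at 88 bp from the replicate 3 summit.

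IDR peaks lay around 4 of the 8 genes, amos, Oli, da and emc, and around none of ato, cato, tap and dimm. The share of all protein-coding genes with an IDR peak in the same window is 50.4%, and 51.2% among genes between the shortest and the longest of the 8. The share of 4 in 8 is thus at this background. No IDR peak overlapped the body of any of the 8 genes, where 14.6% of protein-coding genes, taken at all lengths, have one. No IDR summit was within 500 bp of their start sites either, against 13.8% of protein-coding genes. Of the 6 IDR peaks, 2, those upstream of Oli and upstream of emc, had one of these genes as the nearest protein-coding start site, and 14.9% of all protein-coding genes are nearest to at least 1 peak. Another gene's start site lay within 500 bp of the summit at 3 of the 6, where 51.3% of all IDR summits are that close to a coding start site. Within 5 kb of the gene body the count fell to 2 genes, da and emc.

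**Figure D1:**
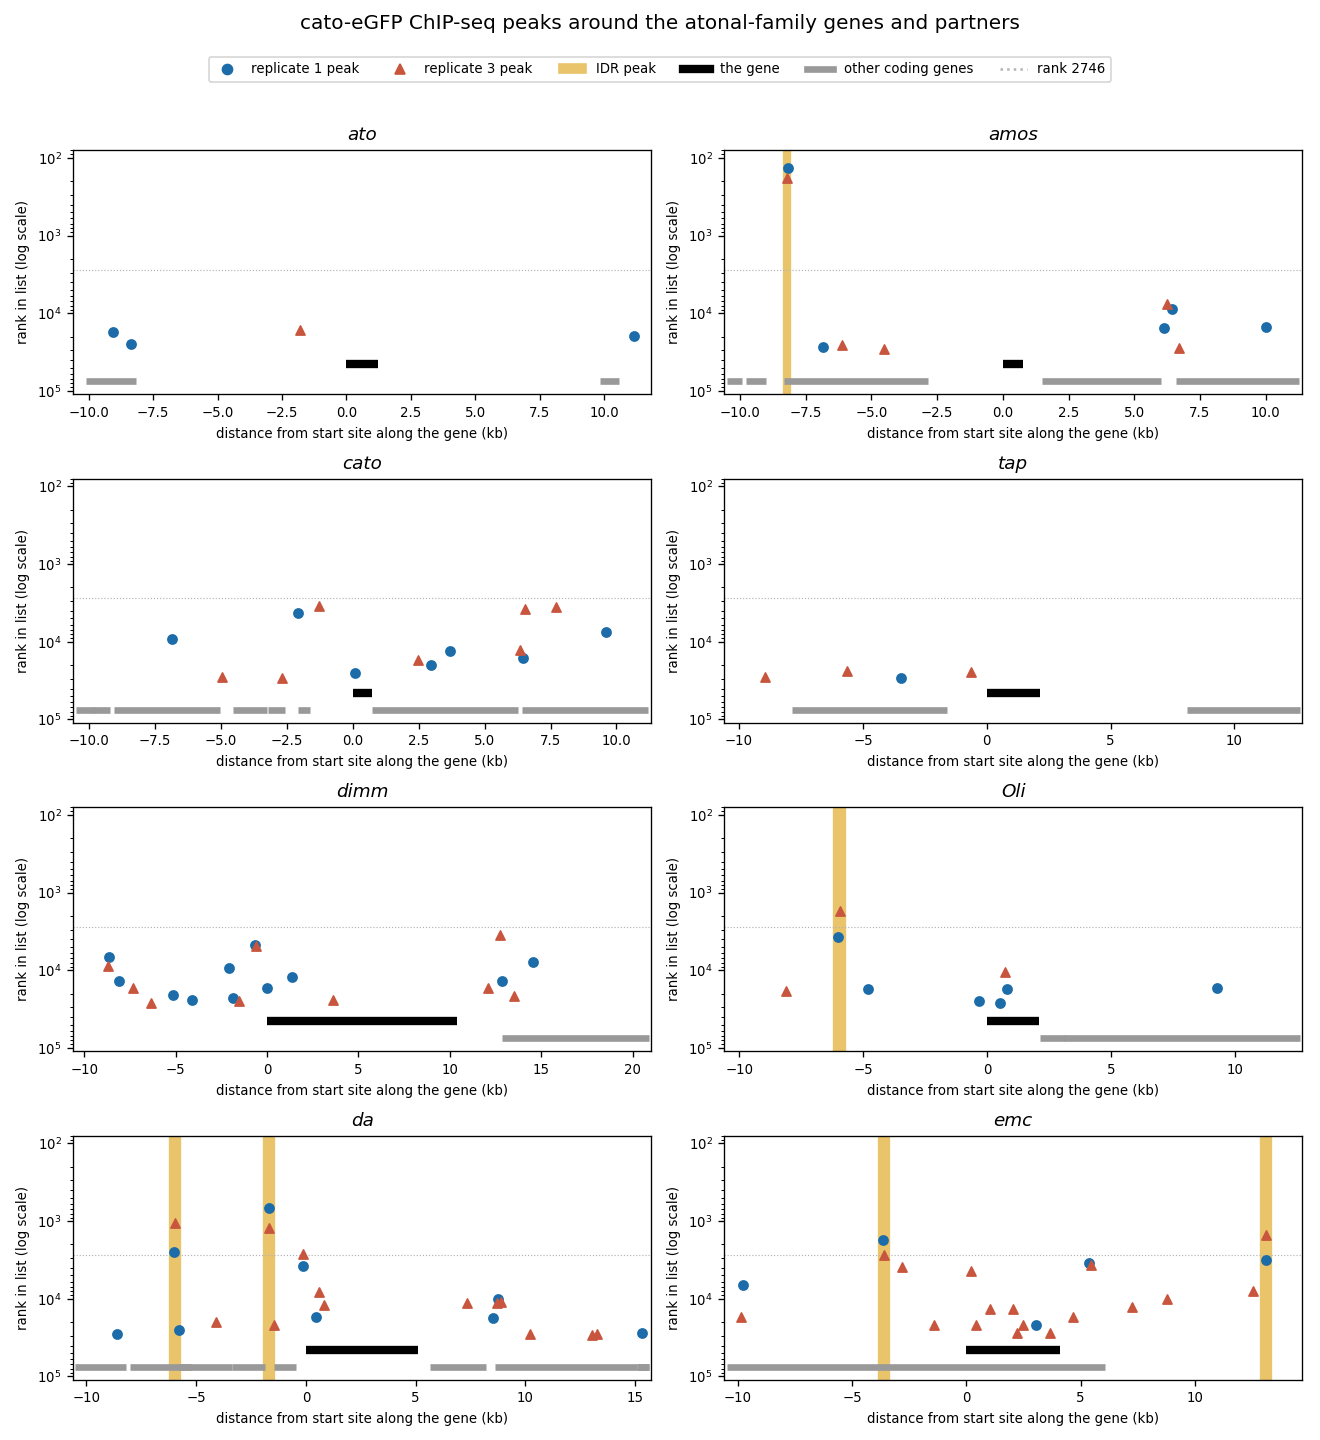
Peaks around each of the 8 genes by distance of the summit from the most upstream start site, along the direction of transcription, in kb; the y axis is the rank in the replicate's list on a log scale with strong peaks at the top, and the bars at the bottom mark genes and carry no rank. IDR peaks (bands) appear in the panels of amos, Oli, da and emc, and none crosses a black gene bar.

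The strongest peak near any of the genes belonged to the amos region. It ran from 18605054 to 18605237 on chromosome 2L, had a signal value of 292.5 and ranked 153 of 2746, above 94.4% of IDR peaks. In the replicates it had a signal value of 99.8 at rank 133 in replicate 1 and 142.9 at rank 184 in replicate 3. Both replicates thus placed it among their strongest peaks. It was not close to amos, however: its summit was 8232 bp upstream of the amos start site and 96 bp from a start site of CG10413, in the 5' UTR of that gene. Windows of 7 protein-coding genes contain this peak. At amos itself (FBgn0003270, chromosome 2L from 18596136 to 18596921, minus strand, a single start site) neither replicate had a peak in the gene body, and the nearest of either replicate's peaks was 4328 bp away.

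The peak near Oli, the weakest of the 6, lay in intergenic sequence and had Oli as its nearest coding gene. It ran from 17583018 to 17583421 on chromosome 2L, with a signal value of 79.8 at rank 2193. Its summit was 5964 bp upstream of the first of 3 Oli start sites (FBgn0032651, 17589184 to 17591267, plus strand). Replicate 1 had it at a signal value of 18.4 and rank 3688, and replicate 3 at 48.8 and rank 1715. It was thus among the 2746 strongest in replicate 3 but not in replicate 1; of the 2741 IDR peaks found in both lists, 15.7% fell outside that rank in replicate 1 and 11.5% in replicate 3. Both replicates also had weak peaks in the 5' UTR of Oli. These reached 9.4 at rank 17321 in replicate 1, with a summit 148 bp upstream of the nearest Oli start site, and 16.9 at rank 10557 in replicate 3, with a summit 225 bp upstream of it.

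Around da, 2 IDR peaks lay at the promoters of upstream neighbours, and a weaker peak lay at the da start site. da (FBgn0267821, chromosome 2L from 10388105 to 10393228, plus strand) has 9 protein-coding neighbours within 10 kb, the most of the 8 genes. The stronger IDR peak, from 10386204 to 10386607, had a signal value of 123.0 at rank 1028, with 48.8 at rank 687 in replicate 1 and 57.9 at rank 1239 in replicate 3. Its summit was 1699 bp upstream of da and 144 bp upstream of Cdk1, which encodes the cyclin-dependent kinase of mitosis and is transcribed away from da. The start site of mRpS7 lies on the other side of this peak. The pooled-list peak that overlaps it has its summit 164 bp upstream of mRpS7. The other IDR peak, from 10381916 to 10382319, had a signal value of 105.7 at rank 1385, with 23.3 at rank 2504 in replicate 1 and 63.2 at rank 1049 in replicate 3. It lay 145 bp upstream of CG5096, inside the 3' UTR of gny, and 5987 bp upstream of da. The peak at the da start site itself had 18.1 at rank 3790 in replicate 1 and 37.5 at rank 2624 in replicate 3, with summits 129 and 124 bp upstream of the start. It overlapped no IDR peak, but replicate 3 alone placed it among its 2746 strongest. A further pair lay in the first part of the gene, 480 bp downstream of the start in replicate 1 (9.4, rank 17120) and 599 bp in replicate 3 (19.0, rank 8166), in an intron.

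emc had 1 IDR peak upstream and 1 downstream, neither at its promoter. emc (FBgn0000575, chromosome 3L from 749400 to 753492, plus strand) lies inside an intron of hng3, which is transcribed in the opposite direction. The upstream peak, from 745574 to 745977, had a signal value of 98.9 at rank 1553, with 29.0 at rank 1777 in replicate 1 and 36.7 at rank 2699 in replicate 3. Its summit was 3624 bp upstream of emc, in the hng3 intron, and emc was its nearest coding start site. The downstream peak, from 762305 to 762708, had a signal value of 100.7 at rank 1508, with 20.3 at rank 3130 in replicate 1 and 52.8 at rank 1491 in replicate 3. It was intergenic, 8813 bp past the end of emc and 7018 bp upstream of hng3. This was the farthest peak that the 10 kb limit admitted. The nearest peak outside that limit was on the upstream side, 10.3 kb from emc and 406 bp from another hng3 start site. It had a signal value of 196.3 and rank 398.

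**Figure D2:**
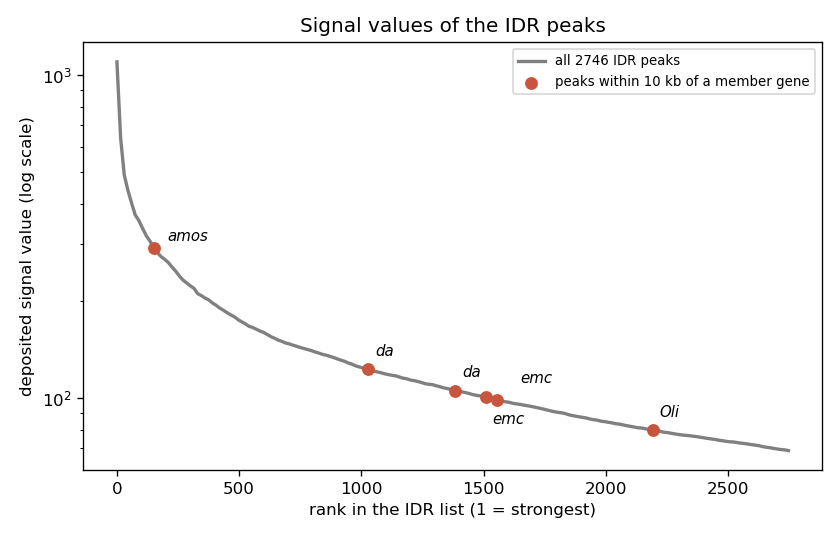
Deposited signal value, on a log scale, against rank for the 2746 IDR peaks (line), with the 6 peaks within 10 kb of the 8 genes as points named by gene. The amos-region peak stands at 292.5, the peaks near da and emc lie between 98.9 and 123.0 around the median of 106.3, and the Oli peak is at 79.8.

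The 4 genes with no IDR peak in their windows differed in how far away the nearest one was. From ato, the nearest was 13021 bp upstream, at the promoter of Mcm2, a gene for a subunit of the replicative helicase (signal value 102.0, rank 1480). From cato it was 15717 bp upstream, 85 bp from a start site of Atg9, an autophagy gene (166.1, rank 551). From tap it was 42915 bp downstream (72.4, rank 2570), a distance reached or passed by 16.9% of protein-coding genes. From dimm it was 163091 bp upstream (137.9, rank 829), and only 2.34% of protein-coding genes are as far from an IDR peak. The median over protein-coding genes is 9860 bp.

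At ato the replicates had few and weak peaks that never coincided. ato (FBgn0010433, chromosome 3R from 8278052 to 8279274, plus strand) had 3 peaks in replicate 1, with signal values of 9.4, 8.1 and 8.9, and 1 peak in replicate 3, of 13.6. The best ranks were 17322 and 16574 of 30000. Of these, the replicate 3 peak was closest to the gene, 1818 bp upstream of its start site. tap (FBgn0015550, chromosome 3L from 17359682 to 17361811, plus strand) was similar, with 1 peak in replicate 1 (7.4, rank 29348) and 3 in replicate 3 (10.2, 11.3 and 11.2). The replicate 3 peak nearest to tap was 655 bp upstream of its start site, at rank 24410. No peak of one replicate overlapped one of the other around either gene, where 86.2% of protein-coding genes have an overlapping pair in the window.

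cato, the gene whose product was precipitated, had 7 peaks in each replicate. Of these, 1 replicate 1 peak overlapped replicate 3 peaks, 2 of them, next to the start sites of Khc, the kinesin heavy chain gene, and CG33017. The replicate 1 peak had a signal value of 9.6 at rank 16318. The replicate 3 peak at Khc had 29.5 at rank 3777, and the one with its summit 61 bp upstream of CG33017 had 15.5 at rank 12629. At cato itself (FBgn0024249, minus strand, 16277685 to 16278396 on chromosome 2R), replicate 1 had a peak 85 bp into the gene, in coding sequence, with a signal value of 8.0 at rank 25167. Replicate 3 had none there. Its peak nearest upstream of cato, 1296 bp from the start site and 323 bp upstream of prim, had 31.0 at rank 3489. The strongest replicate 1 peak of the window, 2093 bp upstream of cato and 461 bp upstream of CG15705, had 17.0 at rank 4260. No replicate 3 peak lay under it. The labels do not say which DNA around cato the tagged transgene carries, and whether reads from it contribute to the peaks in this window was not tested.

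dimm had more coinciding peaks than the other 3 genes without an IDR peak, and they lay near its start site and its flanks. Its window was also longer, at 30400 bp against 20712 to 22130 bp for the other 3. dimm (FBgn0023091, chromosome 2L from 21331756 to 21342155, plus strand, 2 start sites) had 11 peaks in replicate 1 and 9 in replicate 3, and 4 of the 11 overlapped a replicate 3 peak. The pair nearest the gene was upstream of the first start site, 667 bp away in replicate 1 (16.2, rank 4673) and 605 bp away in replicate 3 (25.0, rank 4939). The pair at the promoter of Tsp39D, a tetraspanin gene downstream of dimm, had 10.3 at rank 13832 in replicate 1 and 30.6 at rank 3565 in replicate 3. A distal pair had 13.7 at rank 6736 in replicate 1, 8620 bp upstream of dimm, and 18.3 at rank 8859 in replicate 3, 8701 bp upstream. None of these was in the IDR list.

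Across the 8 windows, 22 of 47 replicate 1 peaks overlapped a replicate 3 peak, or 46.8%, close to the 44.8% of the whole replicate 1 list. In the other direction the count was 23 of 58, or 39.7%, against 46.8% of the whole replicate 3 list. Leaving out the emc window gave 19 of 41, or 46.3%. Of the 22 overlapping peaks of replicate 1, 7 also overlapped an IDR peak and 15 did not. All 4 replicate 1 peaks that ranked within the top 2746 overlapped a replicate 3 peak within that rank. Replicate 3 had 7 peaks within that rank, of which 4 overlapped a replicate 1 peak that was also within it. The other 3, upstream of Oli, at the da start site and downstream of emc, overlapped replicate 1 peaks of ranks 3688, 3790 and 3130. At the 6 IDR peaks the replicates' summits were 0 to 71 bp apart, against a median of 31 bp over the 2741 IDR peaks found in both lists.

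**Figure D3:**
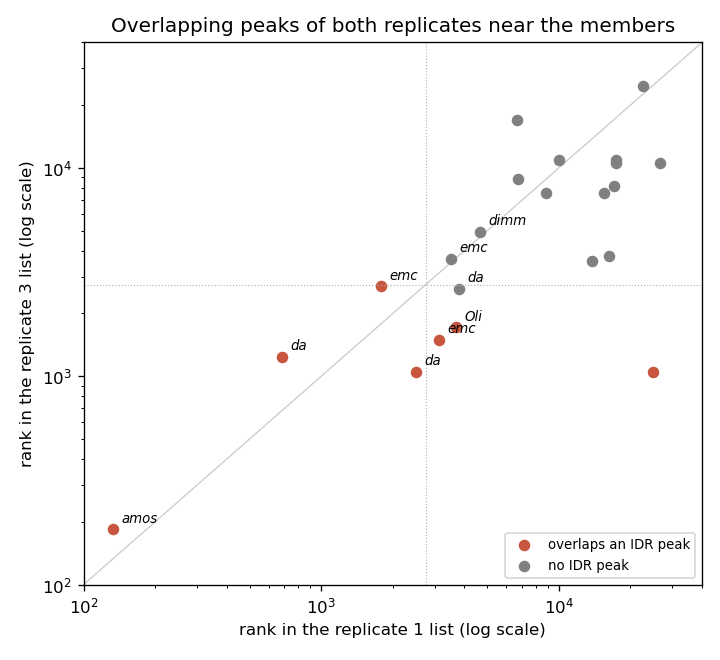
Rank in the replicate 3 list against rank in the replicate 1 list, both on log scales, for the 22 replicate 1 peaks of the 8 windows that overlap a replicate 3 peak; dotted lines mark rank 2746 and the grey line equal ranks. The amos-region peak is at rank 133 and 184. Among pairs without an IDR peak, that at the da start site is at 3790 and 2624. One in the Oli 5' UTR is at 17321 and 10557, and the pair upstream of the first dimm start site is at 4673 and 4939.

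A pair of overlapping peaks with both summits within 500 bp of a start site was found at 2 of the 8 genes, Oli and da, against a share of 31.3% of protein-coding genes. The dimm pair, at 605 and 667 bp, was outside that limit. At emc only replicate 3 had peaks in this range, the stronger 219 bp downstream of the start site in the 5' UTR (27.0, rank 4364). cato and dimm had a weak one in replicate 1 only, and at amos, ato and tap neither replicate had any.

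The number of peaks around emc differed between the replicates more than around the other genes. All 8 genes had at least 1 peak of each full list in the window, as had 98.1% of protein-coding genes in replicate 1 and 95.6% in replicate 3. Replicate 3 had 17 peaks in the emc window and replicate 1 had 5, and over the gene body itself the counts were 7 and 1. Entries of a list that overlap each other were counted separately, here and over all genes. In the emc body, replicate 3 entries starting at 749414 and 749615 overlap, and so do neighbouring ones starting at 751215, 751423 and 751688. Only 0.552% of protein-coding genes had as large an excess of replicate 3 peaks, 12 or more. The 7 body peaks of replicate 3 ranked between 4364 and 27827, so all were outside its top 2746. Around da, replicate 3 had 13 peaks and replicate 1 had 9. Around amos and cato the counts were equal, at 5 and 7, and around Oli replicate 1 had 6 and replicate 3 had 3. The medians over all protein-coding genes were 6 in replicate 1 and 7 in replicate 3. With 2 libraries of unknown depth, the part that depth plays in these counts was not tested.

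**Figure D4:**
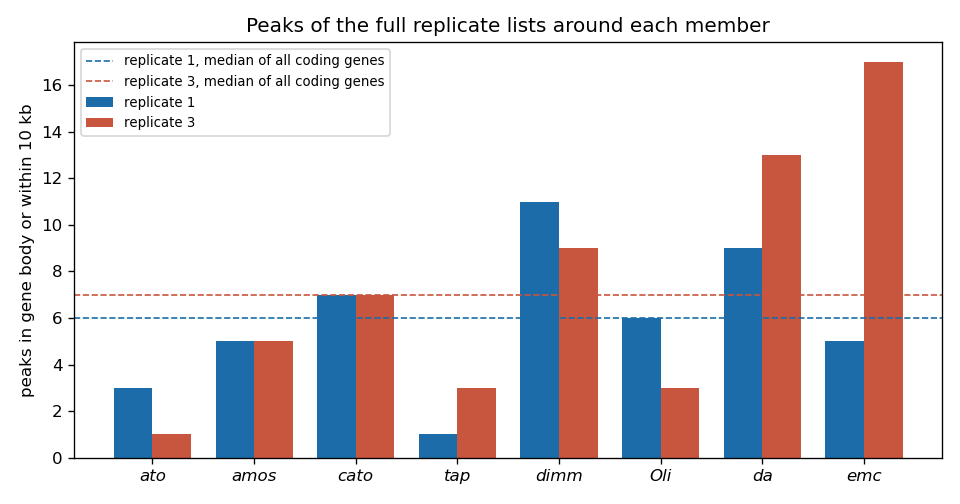
Number of peaks of the full lists in the gene body or within 10 kb of each of the 8 genes (bars, 1 library each, so there is no error bar), with the median over all protein-coding genes as dashed lines. The counts for emc are 17 in replicate 3 and 5 in replicate 1, and ato and tap have at most 3 in either.

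Of 28 further bHLH genes found in the annotation, 13 had an IDR peak in the gene body or within 10 kb, or 46.4%, against 50.4% of all protein-coding genes, and 6 were the nearest coding gene to one, or 21.4%, against 14.9%. The strongest was in crp, the AP-4 relative, with a signal value of 231.2 in an intron 7794 bp from a start site. SREBP, a regulator of lipid synthesis, followed with 160.8 in an intron, 553 bp from a start site. cwo, a repressor of the circadian clock, had 123.4, the growth regulator Myc 106.8, its antagonist Mnt 95.8 and bigmax, the partner of Mondo, 71.2. Those of crp, SREBP, cwo, Myc and Mnt were intronic, and that of bigmax was 118 bp upstream of a start site. None of the achaete-scute genes ac, sc, l(1)sc and ase was the nearest gene to an IDR peak.

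Of 19 genes that act before or after ato, 8 had an IDR peak in the window, or 42.1%, against 50.4% of all protein-coding genes, and 5 were nearest to one, or 26.3%, against 14.9%. The strongest were chn, a zinc-finger regulator of proneural genes, at 357.5, 157 bp from a start site, and edl, a modulator of EGF receptor signalling, at 319.4. chn was nearest to 3 IDR peaks and edl to 4. The eye homeobox gene so had 113.6, 293 bp upstream of a start site. The rhomboid protease gene ru had 109.1 and phyl, an adaptor for protein degradation in sense organ precursors, had 99.6. Both replicates held all 5, at ranks of 3476 or better in replicate 1 and 2119 or better in replicate 3. The amos-region peak, at 292.5, was weaker than those of chn and edl and stronger than that of crp, and the other 5 peaks near the 8 genes, at 79.8 to 123.0, were below that of cwo.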

How the data were processed

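The authors deposited narrowPeak lists on dm6 for replicate 1, replicate 3, their pool and the IDR-thresholded set, derived from the authors' alignments per the file descriptions. The column used is the signal value per peak, deposited on the scale of the authors' caller. The caller and aligner, and how deeply each library was read, are not stated in the labels or file descriptions. The dm3 lists were not used, since the annotation used is of dm6. Positions are dm6, written 1-based. Genes came from Ensembl release 115 (BDGP 6.54) and sequence from the RefSeq copy of that assembly, on which the first codon of all 8 genes read ATG.

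A peak counted for a gene when it overlapped the gene body or the 10 kb beside it by at least 1 bp. Peaks were ranked by signal within a list. Promoter means 500 bp either side of a start site. Each IDR peak was also assigned to its nearest coding start. E-boxes were counted within 50 bp of summits. Overlap counting was tested on simulated data. With 1 condition no test was run. Shares over all protein-coding genes stand beside the counts.

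Genes named are the 8, the gene holding or nearest to each of their IDR peaks, and up to 10 members of each further list with a peak of their own. Neighbours outside this rule (Mcm2, Atg9, Khc, CG33017, prim, CG15705, Tsp39D, mRpS7, RpS27A) and the achaete-scute genes were named after their values were seen. Of 30 further bHLH names, 2 were not in the annotation (h and Side). The 8 genes, the lists and the settings were chosen with earlier results of these data known. Python 3.11.15, numpy 2.4.6 and matplotlib 3.10.9 were used. Replicates are described in the labels as biological, and the spread between 2 libraries is all that is measured. The sequence of 1 further peak is not reported here.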

Additional observations from a re-analysis of the deposited data

How the results depend on the processing

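The number of genes with an IDR peak, 4 with 10 kb on each side, depended on that distance: it was 0 for gene bodies alone, 1 with 2 kb (da), 2 with 5 kb and 6 with 20 kb. The number of peaks, 6, became 0, 1, 2 and 11 at the same distances. Requiring the summit inside the window left both at 4 and 6. The stronger 50% of the IDR peaks gave 2 genes, amos and da, and 2 peaks, of which 0 were nearest to one of the 8 genes. The strongest 2746 peaks of the pooled list gave 4 genes, with cato in place of Oli, and 5 peaks, 1 of them nearest to one of the 8. One replicate alone, with its 2746 strongest peaks, gave 3 to 4 genes, 4 to 7 peaks, and 1 to 3 peaks nearest to the genes. Replicate 1 alone lacks Oli. With start sites of all gene types, non-coding ones included, 0 IDR peaks were nearest to the 8 genes instead of 2.

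The 4 replicate 1 peaks shared at the top of both lists stayed 4 when 50% of the shorter peak had to overlap, and became 9 with lists of 2 times the length and 22 with the full lists. IDR peaks with an E-box, 1 within 50 bp of the summit, were 0 within 25 bp, 3 within 100 bp and 6 over whole peaks, against 16.9%, 57.5% and 82.7% of all IDR peaks. The count was 0 in the stronger 50%, 2 of 5 in the pooled list and 1 to 2 in one replicate alone. No paired analysis was possible because the study has a single group. Read depth is unknown, so a gene without a peak may have one below these lists.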

Other observations

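The wider surroundings of the genes, looked at after the data had been seen, differed in how many IDR peaks they held. Within 50 kb, emc had 14 IDR peaks, a number reached by 0.151% of protein-coding genes, and da had 8, a number reached by 4.85%. The median was 3. IDR entries that overlap each other were counted separately, here and over all genes. Examples are those starting at 724452 and 724655 near emc, and at 10413399 and 10413599 near da. The 14 peaks around emc had signal values from 78.0 to 260.4, and 11 of them were over 500 bp from any protein-coding start site. The 8 around da, from 76.4 to 123.0, were all within 500 bp of one. They included the promoter of RpS27A, a ribosomal protein gene, 14.8 kb from da, with 91.5. amos had 4 peaks within 50 kb, ato 3, cato 2, tap 1, Oli 1 and dimm 0.

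The deposited pooled list gave these genes a different order. Its strongest peak in the 8 windows was again the amos-region one (47.6, rank 170), and the next was the upstream emc peak (27.8, rank 662), which ranked 1553 in the IDR list. At cato the pooled list held a peak 242 bp inside the gene (12.7, rank 5462). It overlapped a replicate 1 peak of rank 25167 and no replicate 3 peak. At tap it held a peak 707 bp upstream of the start site (11.7, rank 7046) that overlapped a replicate 3 peak of rank 24410.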
